A study of Mus musculus with 6 samples.

Results

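The solute carrier family SLC25 comprises most carrier proteins of the inner mitochondrial membrane. Its members were taken as every gene whose symbol is Slc25a followed by a number, which gave 39 genes among the 14472 of the comparison, each on a single row and each with a p-value. Another 8 listed symbols of the family (Slc25a2, Slc25a18, Slc25a21, Slc25a31, Slc25a34, Slc25a41, Slc25a48 and Slc25a54) were not analysed here. The cells were mLPS1, a mouse line of dedifferentiated liposarcoma, a malignant soft-tissue tumour related to fat, and RNA from 6 samples was sequenced in bulk. In 3 libraries the genotype was wild type (p numbers 35, 37 and 40), and in the other 3 it was knockout of NICD, the Notch intracellular domain that acts as a nuclear co-activator when a Notch receptor is cleaved (p numbers 34, 36 and 39). What the p number stands for is not given, no treatment is named for either genotype, and both share the mLPS1 background. Over-expression of Notch is named in the title of the series and dNICD cells in its design text. It is not stated whether wild type cells carry an added Notch fragment, nor whether the knockout is 1 clone. No label names separate cultures for the libraries. The p-values therefore measure the spread between these libraries alone, which may be technical.

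Carriers of this family share a fold of membrane-spanning helices around a central site that opens alternately to the intermembrane space and to the matrix. They are encoded in the nucleus, made in the cytosol and inserted into the inner membrane, and between them they move nucleotides, phosphate, carboxylates, amino acids, acylcarnitines, iron and cofactors that the inner membrane would otherwise hold back. In fat cells citrate leaves the mitochondrion through a carrier to feed lipid synthesis and acylcarnitines enter through another to be oxidised.

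No value of a single library was used here. The data are the authors' deposited table of knockout over wild type, which holds for each gene the mean of its normalised counts, a log2 fold change, the standard error (SE) of that change and an adjusted p-value. Group levels given below are fitted normalised counts, derived from that mean and that fold change for 3 libraries a group, so whether single libraries of the groups overlapped could not be seen, and the depth of each library is unknown. A gene is called where its adjusted p lies under 0.05, and intervals are 95% Wald intervals. Among genes that check the labels, Notch1 was 3.43-fold lower and the Notch target Nrarp 79.3-fold lower in knockout cells by the authors' deposited table, although RNA of an added Notch fragment and of the Notch1 gene cannot be told apart there. Of the mesenchymal markers 5 of 6 had a row (Thy1 was not tested here), and their summed fitted level went from 145819 normalised counts in wild type to 76987 in the knockout. Vim, Col1a1 and Pdgfrb were called lower, while Pdgfra (33.6 to 172) and Col1a2 (15.5 to 37.4) were called higher. The adipocyte markers Adipoq, Plin1, Lep and Cidec were not tested here, and the other 2 split: Fabp4 went from 4.37 to 307 and was called higher, and Pparg went from 14.4 to 4.39 and was not called. All 3 liposarcoma amplicon genes (Mdm2, Cdk4 and Hmga2) were present at a sum of 14948 in wild type and 22861 in the knockout. Epcam and Cdh1, which mark epithelial cells, were not tested here. The 4 tested markers of blood and endothelial cells summed to 211 and 2289. Most of this was Cd68, which went from 179 to 2238 and was the one of them that was called. The others were low: Ptprc (3.74 to 13.7), Pecam1 (6.69 to 15.2) and Cdh5 (21.7 to 21.9). The part of these marker shifts in the results below was not tested, and in bulk RNA fewer cells of a type and less RNA per cell cannot be told apart.

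Of the 39 carriers, 21 were called, which is 53.8% where all 14470 tested genes gave 50.5% in the authors' deposited table. The knockout was higher for 15 carriers (38.5%, where 25.4% of all genes were called higher) and lower for 6 (15.4%, where 25.1% were called lower). Carriers thus changed about as often as genes at large, with more rises than falls among them. Their median log2 fold change was 0.13, where that of all genes was 0.02, and among the 33 carriers whose mean reached 100 it came to 0.31, where that of all genes this abundant was -0.05. Changes of at least 2-fold were called for 6 carriers, 5 higher and 1 lower, or 15.4% beside 23.2% of all genes. Among the carriers with a mean of at least 100, 18 were called by the deposited adjustment (54.5%, all genes this abundant 54.6%). With the adjustment repeated over such genes, 18 carriers were called as well. Bonferroni adjustment left 6 (15.4%, all genes 21.9%), and a test of whether the change exceeds 1.5-fold left 4 (10.3%, all genes 17.7%). Among those last were Slc25a23 and Slc25a22, which rose, and Slc25a29, which fell.

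**Figure D1:**
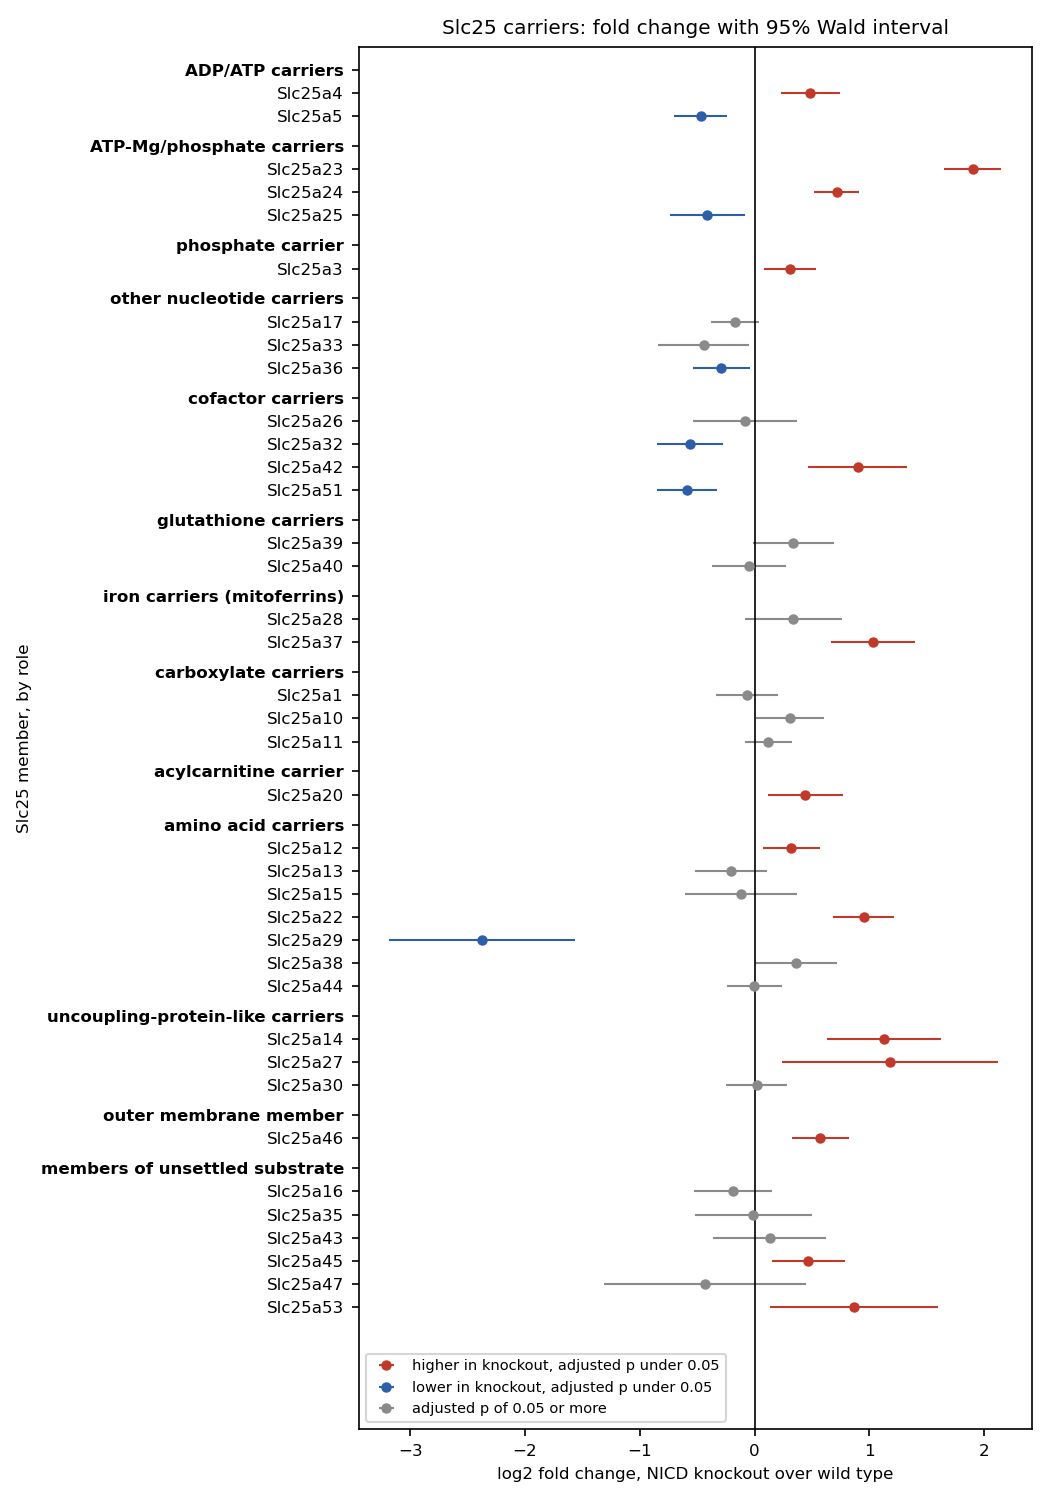
Log2 fold change (NICD knockout over wild type) of 38 of the 39 Slc25 carriers in the authors' deposited table, grouped by what they carry, with 95% Wald intervals as bars. The 14 carriers shown that were called higher and the 6 called lower are coloured, and the changes run from -2.37 for Slc25a29 to 1.90 for Slc25a23.

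The ADP/ATP carriers, which hand the ATP made in the matrix to the cytosol in exchange for ADP, moved in opposite directions. Slc25a4 (ENSMUSG00000031633, chromosome 8) is the isoform best known from heart and skeletal muscle, and Slc25a5 (ENSMUSG00000016319, chromosome X) is the one best known from dividing cells. The fitted level of Slc25a4 was 4832 normalised counts in wild type and 6760 in the knockout, and its log2 fold change, by the authors' deposited table, was 0.48. Slc25a5 stood at 7545 in wild type and 5453 in the knockout. It fell by the authors' deposited table, with a log2 fold change of -0.47 ± 0.12 SE, an interval of -0.70 to -0.24 and an adjusted p of 2.28e-04, while Slc25a4 rose with an adjusted p of 8.04e-04. Per kilobase of transcript, Slc25a5 was 2.42 times as abundant as Slc25a4 in wild type and 1.25 times in the knockout. The changes of the pair differed by 0.95 on the log2 scale, with an SE of 0.18 if the 2 estimates were independent, which was not tested. Both calls were lost under Bonferroni adjustment.

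How far the counting could keep these transcripts apart is shown by the start of their coding sequences. They are 897 bases each in GENCODE M21 (GRCm38) and 77.5% identical. Bases 1 to 120 of each are given 5′ to 3′ in lower case, with the 26 positions at which they differ in capitals.
Slc25a4: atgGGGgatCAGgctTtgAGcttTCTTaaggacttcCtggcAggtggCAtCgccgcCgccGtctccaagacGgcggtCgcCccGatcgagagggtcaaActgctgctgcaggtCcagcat
Slc25a5: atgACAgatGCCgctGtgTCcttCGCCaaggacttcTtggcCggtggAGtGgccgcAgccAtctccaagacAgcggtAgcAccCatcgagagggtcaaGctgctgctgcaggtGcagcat
Longest identical run: cagttctggcgctactttgc
That run spans bases 322 to 341 of both and is 20 bases long. No stretch of 31 bases was shared by the transcripts of the 2 genes. Slc25a4 shared none with any other gene model either. For Slc25a5, 67.1% of its 31-base stretches also occur in 13 other gene models, all of them pseudogenes, with Gm5560 sharing the most. Reads of Slc25a5 could have been split with these models, so its value is uncertain.

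The ATP-Mg/phosphate carriers trade adenine nucleotides for phosphate across the inner membrane and so set the size of the matrix nucleotide pool. Their calcium-binding ends make them respond to cytosolic calcium. All 3 tested members were called, 2 higher and 1 lower. Slc25a23 (ENSMUSG00000046329, chromosome 17) had the largest rise of the family, from 367 normalised counts in wild type to 1367 in the knockout, or 3.73-fold. In the authors' deposited table its log2 fold change was 1.90 ± 0.13 SE (interval 1.65 to 2.15, adjusted p = 8.48e-48), which ranked 294 of 14470 by p. Slc25a24 was the most abundant of the 3 and went from 2802 to 4596. Its log2 fold change, by the authors' deposited table, was 0.71 ± 0.10 SE, with an interval of 0.52 to 0.91 and an adjusted p of 1.58e-11. Slc25a25, a carrier that also responds to calcium, fell by the authors' deposited table, at a log2 fold change of -0.41 and an adjusted p of 0.0289. That call was lost when fold changes were centred on the median of expressed genes. Per kilobase, Slc25a24 exceeded Slc25a23 by 7.48 times in wild type and by 3.29 times in the knockout. Slc25a23 went from 0.55 to 2.70 times the per-kilobase level of Slc25a25, so the order of these 2 was turned.

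Slc25a3, the phosphate carrier that supplies ATP synthase and also brings copper into the matrix, was abundant in both groups, at 7270.0 normalised counts in wild type and 8999 in the knockout. The authors' deposited table put its log2 fold change at 0.31 ± 0.12 SE (interval 0.08 to 0.54, adjusted p = 0.0197), a small rise. The other nucleotide carriers all had values below 0, and 1 of 3 was called. The peroxisomal carrier Slc25a17, their most abundant member, stood at 1109 in wild type and 986 in the knockout. For it the authors' deposited table gave -0.17 ± 0.11 SE, an interval of -0.38 to 0.04 and an adjusted p of 0.180, which is no call. Slc25a33 and Slc25a36 carry pyrimidine nucleotides, which mitochondria need for their DNA and RNA. Slc25a36 fell, with a log2 fold change of -0.29 and an adjusted p of 0.0471 in the authors' deposited table, a call that was lost on centring. Slc25a33 had -0.44 with an adjusted p of 0.0551 in the authors' deposited table.

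Carriers of cofactors moved in both directions. Slc25a42, which carries coenzyme A, rose with a log2 fold change of 0.90 and an adjusted p of 1.60e-04 in the authors' deposited table. Slc25a51, the carrier of oxidised nicotinamide adenine dinucleotide (NAD+), was the most abundant of these and went from 1177 to 782. The authors' deposited table gave it -0.59 ± 0.13 SE, an interval of -0.85 to -0.32 and an adjusted p of 5.06e-05. Slc25a32, which has been linked to folate and flavin transport, fell with a log2 fold change of -0.56 and an adjusted p of 4.34e-04 in the authors' deposited table. For Slc25a26, the carrier of S-adenosylmethionine, the authors' deposited table gave -0.08 with an adjusted p of 0.799, and its neighbours had a median of -0.70. With that subtracted, the value was 0.62 and was called (adjusted p = 0.0187). Tests after such subtraction, here and below, used the gene's own SE alone and left out the spread among its neighbours.

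Slc25a39 and Slc25a40 have been linked to glutathione uptake into mitochondria. Slc25a39 was among the most abundant carriers, at 5588 normalised counts in wild type and 7064 in the knockout. It was not called: the authors' deposited table gave 0.34 ± 0.18 SE, an interval of -0.02 to 0.69 and an adjusted p of 0.110. Slc25a40 had -0.05 in the authors' deposited table (adjusted p = 0.839), and per kilobase Slc25a39 exceeded it by 33.3 times in wild type and 43.5 times in the knockout. The mitoferrins bring iron into the matrix for haem and iron-sulfur clusters. Slc25a37 (mitoferrin-1, chromosome 14), best known from developing red cells, rose from 1393 to 2846 normalised counts. In the authors' deposited table its log2 fold change was 1.03 ± 0.19 SE (interval 0.66 to 1.40, adjusted p = 2.19e-07). Of its 31-base stretches, 11.0% also occur in other gene models, mostly Gm16867, whose log2 fold change, by the authors' deposited table, was -0.25 (adjusted p = 0.242). Slc25a28 (mitoferrin-2), expressed in most tissues, had 0.34 in the authors' deposited table with an adjusted p of 0.186. Per kilobase, Slc25a28 was 2.25 times as abundant as Slc25a37 in wild type and 1.39 times in the knockout.

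None of the 3 carboxylate carriers was called. Slc25a1, the citrate carrier that feeds cytosolic acetyl-CoA, stood at 1553 normalised counts in wild type and 1480 in the knockout. The authors' deposited table put its log2 fold change at -0.07 ± 0.14 SE, with an interval of -0.34 to 0.20 and an adjusted p of 0.701. Log2 fold changes below -0.34 or above 0.20 thus lay outside its interval. The dicarboxylate carrier Slc25a10 had 0.31 (adjusted p = 0.0778) and the oxoglutarate carrier Slc25a11 had 0.12 (adjusted p = 0.359) in the authors' deposited table. Slc25a20, the carnitine/acylcarnitine carrier that admits long-chain fatty acids for oxidation, rose from 356 to 483 normalised counts. Its log2 fold change, by the authors' deposited table, was 0.44 ± 0.17 SE (interval 0.12 to 0.77, adjusted p = 0.0184), a call that was lost when the median of its neighbours was subtracted.

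Of the 7 amino acid carriers, 2 rose and 1 fell. The aspartate/glutamate carriers Slc25a12 and Slc25a13 serve the malate-aspartate shuttle. Slc25a12, the form best known from brain and muscle and the most abundant of the 7, went from 1338 normalised counts in wild type to 1669 in the knockout. The authors' deposited table gave it 0.32 ± 0.13 SE, an interval of 0.07 to 0.57 and an adjusted p of 0.0256. Slc25a13, the form best known from liver, had -0.21 with an adjusted p of 0.282 in the authors' deposited table, and 0.43 with an adjusted p of 0.0152 once its neighbours' median of -0.64 was subtracted. Slc25a22, a glutamate carrier, rose from 691 to 1336, with a log2 fold change of 0.95 and an adjusted p of 2.46e-11 in the authors' deposited table. Its neighbours had a median of 0.07. Slc25a29 (ENSMUSG00000021265, chromosome 12), which carries basic amino acids, had the steepest fall of the family, from 71.6 to 13.8, or 5.18-fold. For it the authors' deposited table gave -2.37 ± 0.41 SE, an interval of -3.18 to -1.56 and an adjusted p of 6.41e-08, and its neighbours had a median of -1.07. The remaining members were not called: the authors' deposited table gave -0.12 for the ornithine carrier Slc25a15, 0.36 for the glycine carrier Slc25a38 (adjusted p = 0.0853) and 0.00 for Slc25a44, which carries branched-chain amino acids.

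The 3 members that resemble uncoupling proteins were of low or middling level, and 2 of them rose. Slc25a14 went from 79.2 normalised counts in wild type to 173 in the knockout. For it, by the authors' deposited table, the log2 fold change was 1.13 ± 0.25 SE (interval 0.63 to 1.62, adjusted p = 3.46e-05). That call was lost under Bonferroni adjustment and in the test against 1.5-fold. Slc25a27 went from 28.9 to 65.3. The authors' deposited table gave this low gene 1.18 ± 0.48 SE, an interval of 0.23 to 2.12 and an adjusted p of 0.0305, and the call was lost on subtraction of the neighbours' median. Slc25a30, the most abundant of the 3, stood at 624 and 632 in the groups, and the authors' deposited table gave 0.02 ± 0.14 SE with an interval of -0.25 to 0.28 and an adjusted p of 0.923. Slc25a46 lies in the outer membrane, where it takes part in shaping mitochondria and their contacts. It went from 1055 to 1568, and in the authors' deposited table its log2 fold change was 0.57 ± 0.13 SE (interval 0.32 to 0.82, adjusted p = 3.26e-05). Its neighbours had a median of 0.62, and with that subtracted its value was -0.05.

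The substrates of 6 members are not settled, and 2 of these were called, both higher. Slc25a45 was the most abundant, at 352 normalised counts in wild type and 487 in the knockout. The authors' deposited table gave it 0.47 ± 0.16 SE, an interval of 0.15 to 0.78 and an adjusted p of 0.00891. Slc25a53 rose with a log2 fold change of 0.86 and an adjusted p of 0.0419 in the authors' deposited table, at fitted levels of 30.3 and 55.2. Values that were not called in the authors' deposited table were -0.19 for Slc25a16, -0.01 for Slc25a35, 0.13 for Slc25a43 and -0.43 for Slc25a47. Of the stretches of Slc25a35, 27.7% are shared with other gene models, mostly Rangrf.

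The make-up of the family was read per kilobase of transcript, with each gene's level divided by the mean length of its protein-coding transcripts. In wild type Slc25a5 made up 23.8% of the family total, Slc25a3 19.3%, Slc25a39 13.3% and Slc25a4 9.83%. In the knockout Slc25a3 came to 21.1%, Slc25a5 to 15.2%, Slc25a39 to 14.9% and Slc25a4 to 12.2%. These 4 genes held 66.2% of the carrier transcripts in wild type and 63.4% in the knockout. The order at the top was thus headed by Slc25a5 in wild type and by Slc25a3 in the knockout, and without values of single libraries the spread of these shares is unknown. As 67.1% of the 31-base stretches of Slc25a5 also occur in other gene models, its share and this order are uncertain. The ADP/ATP carriers together went from 33.7% to 27.4%, the ATP-Mg/phosphate carriers from 4.41% to 6.58% and the mitoferrins from 4.24% to 5.65%. The family total was 25528 normalised counts per kilobase in wild type and 28842 in the knockout.

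**Figure D2:**
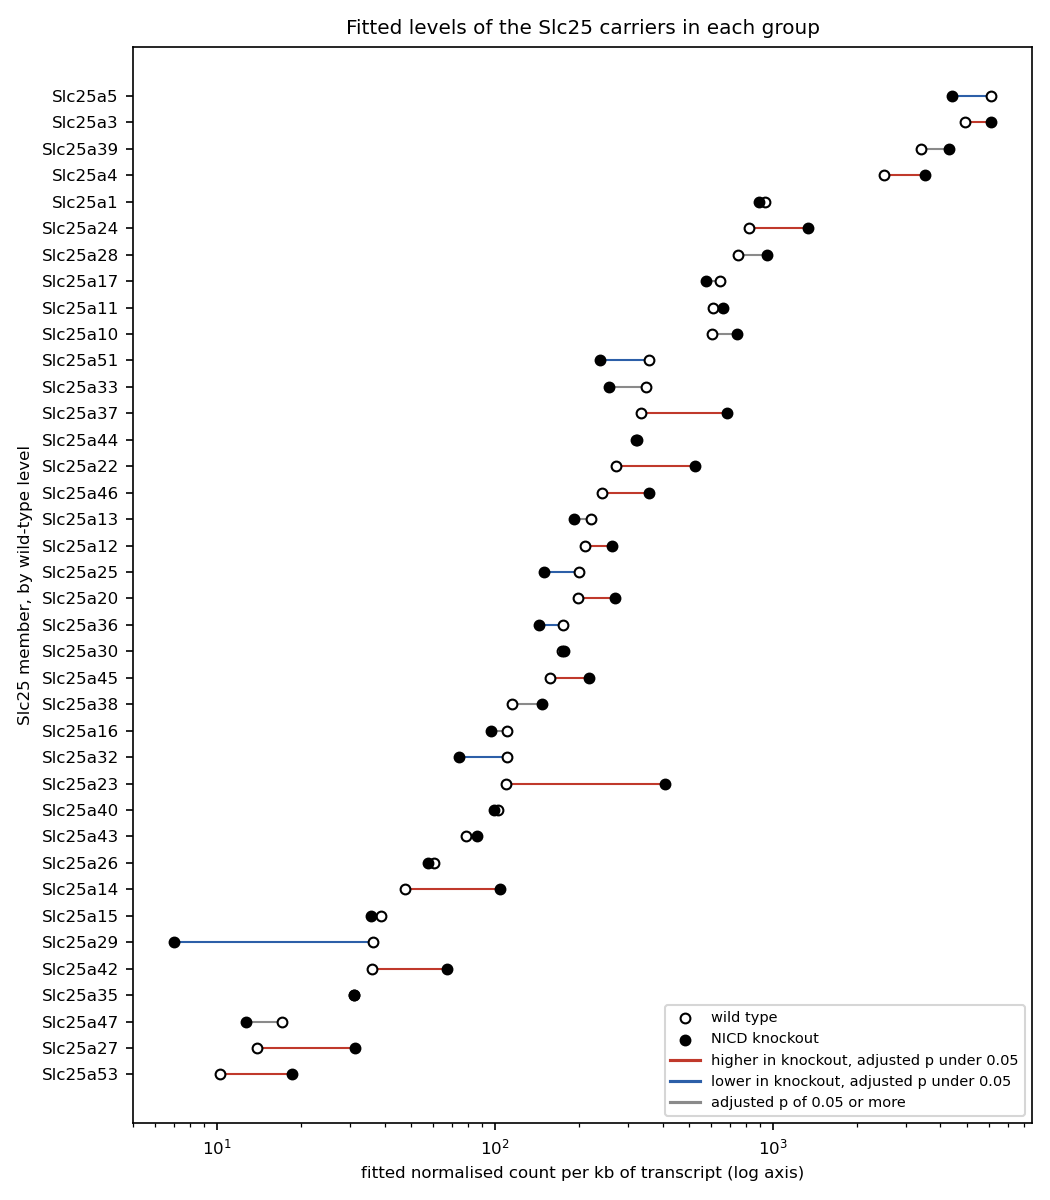
Fitted level of 38 Slc25 carriers per kilobase of transcript (log axis) in wild type and NICD knockout, derived from the authors' deposited table, with no error bars, as single libraries were not read. Slc25a5 heads the wild type order at 6085 and Slc25a3 the knockout order at 6086 normalised counts per kilobase. The value of Slc25a5 is uncertain because other gene models share much of its sequence.

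Close relatives within the family did not always change alike. Slc25a14 and Slc25a30 are 72.1% identical over their coding sequence, and by the authors' deposited table they changed by 1.13 and 0.02, with intervals that do not overlap. Slc25a37 and Slc25a28 are 71.6% identical, and their changes differed by 0.69 with an SE of 0.29 if independent. Slc25a12 and Slc25a13 are 71.2% identical, and theirs differed by 0.52 with an SE of 0.20 on the same terms. Slc25a29 and Slc25a47 lie next to each other on chromosome 12 and are 62.6% identical, and their intervals, -3.18 to -1.56 and -1.31 to 0.45, do not overlap. Both are low, with means of 42.7 and 25.9 normalised counts. Other pairs lay closer for their SE. Slc25a33 and Slc25a36 differed by -0.15 (SE 0.24 if independent), and Slc25a39 and Slc25a40 by 0.38 (SE 0.25 if independent). None of the 10 pairs of relatives compared shared a 31-base stretch, so no stretch of that length matches both genes of a pair exactly. Against all other gene models, 15 of the 39 carriers shared no such stretch, 34 shared fewer than 10% of theirs, and 5 shared at least 10% (Slc25a5, Slc25a35, Slc25a40, Slc25a33 and Slc25a37).

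Some carriers sit among genes that moved the same way, and others do not. With the 10 expressed protein-coding genes on each side taken as neighbours, 11 carriers had a neighbour median of at least 0.3 either way on the log2 scale. The sign of the neighbours was the same for 20 of the 39 carriers. Of the 21 called carriers, 10 had neighbours of the same sign, and for 4 of them, Slc25a24, Slc25a29 and Slc25a46 included, the neighbours reached 0.3 in that direction. The same counts over all genes are not given here, so no excess among carriers is read from them. Around Slc25a29 and Slc25a47, the authors' deposited table gave -0.96 for Yy1, a transcription factor, and -1.38 for Wars, a tryptophan tRNA ligase. Slc25a23 rose while its neighbours had a median of -0.29 and the gene beside it, the RNA-binding protein gene Khsrp, had -0.79 in the authors' deposited table. Slc25a37 rose next to Stc1, a secreted glycoprotein gene whose log2 fold change, by the authors' deposited table, was -9.43, and its neighbours had a median of -0.25. Over the 39 carriers the Pearson correlation of a carrier's change with its neighbour median was 0.38, given as a description only, since all points come from the same 6 libraries. Why some carriers moved with their neighbours and others against them was not tested.

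**Figure D3:**
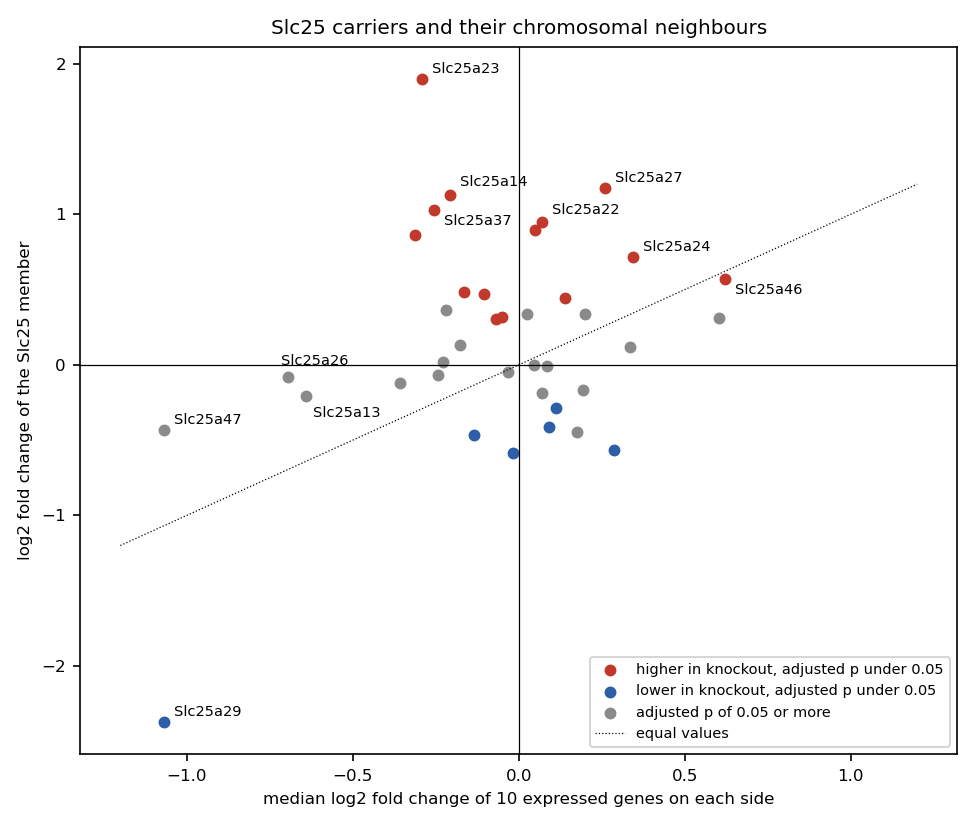
Log2 fold change of 38 Slc25 carriers in the authors' deposited table against the median of its 10 expressed protein-coding neighbours on each side. Slc25a46 (neighbour median 0.62) and Slc25a29 (-1.07) lie among genes that moved their way, and Slc25a23 (-0.29) and Slc25a37 (-0.25) do not.

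Promoter sequence was looked at because the altered gene acts through Rbpj, the DNA-binding partner of NICD. RefSeq promoter windows, 300 bases each on GRCm38.p6, matched 30 of the 39 carriers, which together have 39 windows because some have several start sites. A window of the strongest rise and one of Slc25a22, the called carrier with matches to 2 of the motifs, are given along the gene 5′ to 3′ in lower case, with motif matches in capitals. They lie at chr17:57059814-57060113 and chr7:141435326-141435625, both on the minus strand.
Slc25a23: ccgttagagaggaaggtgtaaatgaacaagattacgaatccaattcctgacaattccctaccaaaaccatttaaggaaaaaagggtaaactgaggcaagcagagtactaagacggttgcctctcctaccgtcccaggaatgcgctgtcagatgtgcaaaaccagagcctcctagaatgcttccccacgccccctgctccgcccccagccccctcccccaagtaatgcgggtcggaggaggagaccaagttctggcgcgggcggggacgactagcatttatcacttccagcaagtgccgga
Slc25a22: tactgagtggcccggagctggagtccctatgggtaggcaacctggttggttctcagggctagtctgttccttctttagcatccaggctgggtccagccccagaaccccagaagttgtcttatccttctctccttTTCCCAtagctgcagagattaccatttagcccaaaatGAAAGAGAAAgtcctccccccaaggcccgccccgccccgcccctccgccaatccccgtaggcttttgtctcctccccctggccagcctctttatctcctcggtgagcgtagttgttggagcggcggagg
Both strands were searched for the Rbpj core TGGGAA, the interferon response core GAAANNGAAA, the Nrf1 core GCGCANGCGC and the Atf4 core TGATGNAA. In the Slc25a22 window shown the Rbpj core lies on the opposite strand with its first base at -116, and the interferon response core lies along the gene at -79, and these matches do not overlap. Of the other 2 windows of Slc25a22, 1 holds an Rbpj core along the gene at -106 and the other holds none of the motifs. Neither of the 2 windows of Slc25a23 held a match to the 4 motifs.

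Over the 30 matched carriers, the Rbpj core was found for 4 (Slc25a20, Slc25a22, Slc25a25 and Slc25a30), or 13.3%, and for 28.3% of all 27025 symbols with windows of the same length. The interferon response core was found for Slc25a15 and Slc25a22, or 6.67%, and for 3.99% of all symbols. The Nrf1 core was found for Slc25a3, or 3.33% beside 5.19%, and the Atf4 core for 0 of 30 beside 4.51%. Of the carriers with an Rbpj core, Slc25a20 and Slc25a22 rose, Slc25a25 fell and Slc25a30 was not called. The windows of carriers were richer in G and C, at a median of 60.0% beside 52.7% over all windows, and held a median of 17 CpG dinucleotides beside 7.

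Genes that work with the carriers were read from 11 lists, of which 84 genes were tested. Calls in the authors' deposited table were higher for 19 of these and lower for 22, and their median log2 fold change was -0.11. These are 22.6% and 26.2% of the 84, near the 25.4% and 25.1% of all genes, and the counts by list that follow are read beside those shares. Family members under other symbols were led by Ucp2, an uncoupling protein that exports C4 metabolites, which went from 5.39 to 48.7 normalised counts. Its log2 fold change, by the authors' deposited table, was 3.18 ± 1.02 SE (interval 1.17 to 5.19, adjusted p = 0.00517). At this low level the value is imprecise, and the call was lost under Bonferroni adjustment and in the test against 1.5-fold. Mtch1 and Mtch2 were not called, and Ucp1 and Ucp3 were not analysed here. The route by which carriers are imported had 2 of 13 genes higher and 4 lower. Agk, a subunit of the TIM22 carrier translocase, had -0.95, the small chaperone Timm10b had -0.89 and the translocase subunit Timm29 had 0.46 in the authors' deposited table. Of the pyruvate carrier, which belongs to another family, Mpc1 rose by 0.36 in the authors' deposited table and Mpc2 was not called.

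Enzymes on either side of the carriers were mixed in direction. Of the 4 malate-aspartate shuttle enzymes, 2 were called, with -0.56 for Got1 and -0.39 for Mdh2 in the authors' deposited table. Of the aspartate/glutamate carriers that serve this shuttle, Slc25a12 rose and Slc25a13 was not called. Of the 6 genes of citrate export and use, 3 rose, among them fatty acid synthase Fasn with 0.69 and malic enzyme Me1 with 0.33 in the authors' deposited table, while the citrate carrier itself was not called. The neighbours of Fasn had a median of 0.67. Once the neighbours' medians were subtracted, 2 of the 6 were called higher and 3 lower. Of the 10 carnitine shuttle and oxidation genes, 1 rose and 2 fell: the authors' deposited table gave 0.55 for the dehydrogenase Acadl and -0.66 and -0.38 for the trifunctional protein subunits Hadhb and Hadha. The folate and serine enzymes, of which Mthfd1 and Shmt1 are cytosolic and the others mitochondrial, had 4 of 7 lower and 0 higher, with a list median of -0.69. In the authors' deposited table Mthfd2 had -1.03, Shmt2 had -0.86 and Mthfd1 had -0.56, and the neighbours of Mthfd2 and Mthfd1 had medians of -0.62 and -0.87. With the neighbours' medians subtracted, 2 of the 7 were called lower and 1 higher. Under Bonferroni adjustment 0 of the 7 were called, and likewise 0 in the test against 1.5-fold.

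Haem and iron-sulfur synthesis had 5 of 11 genes higher and 2 lower. Alas1, which makes the first precursor of haem, had 0.85 and Ppox, a late enzyme of the pathway, had 0.79 in the authors' deposited table. Glrx5, a glutaredoxin that hands on iron-sulfur clusters, had -1.39 in the authors' deposited table, and its neighbours had a median of -0.80. At an adjusted p under 0.01, 2 of this list were higher and 1 lower. Proline, ornithine and glutamine enzymes had 3 of 7 lower, with -1.46 for proline dehydrogenase Prodh, -0.60 for ornithine aminotransferase Oat and -0.32 for glutamate dehydrogenase Glud1 in the authors' deposited table. ATP synthase, which uses what the phosphate and ADP/ATP carriers bring, had 4 of 12 subunit genes higher and 3 lower. The authors' deposited table gave 0.75 for Atp5h, -1.07 for Atp5o and -0.78 for Atp5j, and their neighbours had medians of 0.60, -1.09 and -0.99.

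Regulators of mitochondrial biogenesis had 2 of 9 genes higher and 2 lower. Gabpa, a subunit of nuclear respiratory factor 2, had -1.47 and Nrf1, nuclear respiratory factor 1, had -0.82 in the authors' deposited table, and their neighbours had medians of -0.82 and -0.58. Ppargc1a is the co-activator best known for raising mitochondrial content. It was fitted at 20.0 normalised counts in the knockout and at less than 1 a library in wild type. The knockout level was thus 20.0-fold a floor of 1 normalised count a library, a ratio that leaves out sampling error. By the authors' deposited table the interval of its log2 fold change was 3.93 to 9.43 (adjusted p = 9.40e-06). At this low level the size of the rise is imprecise.

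**Figure D4:**
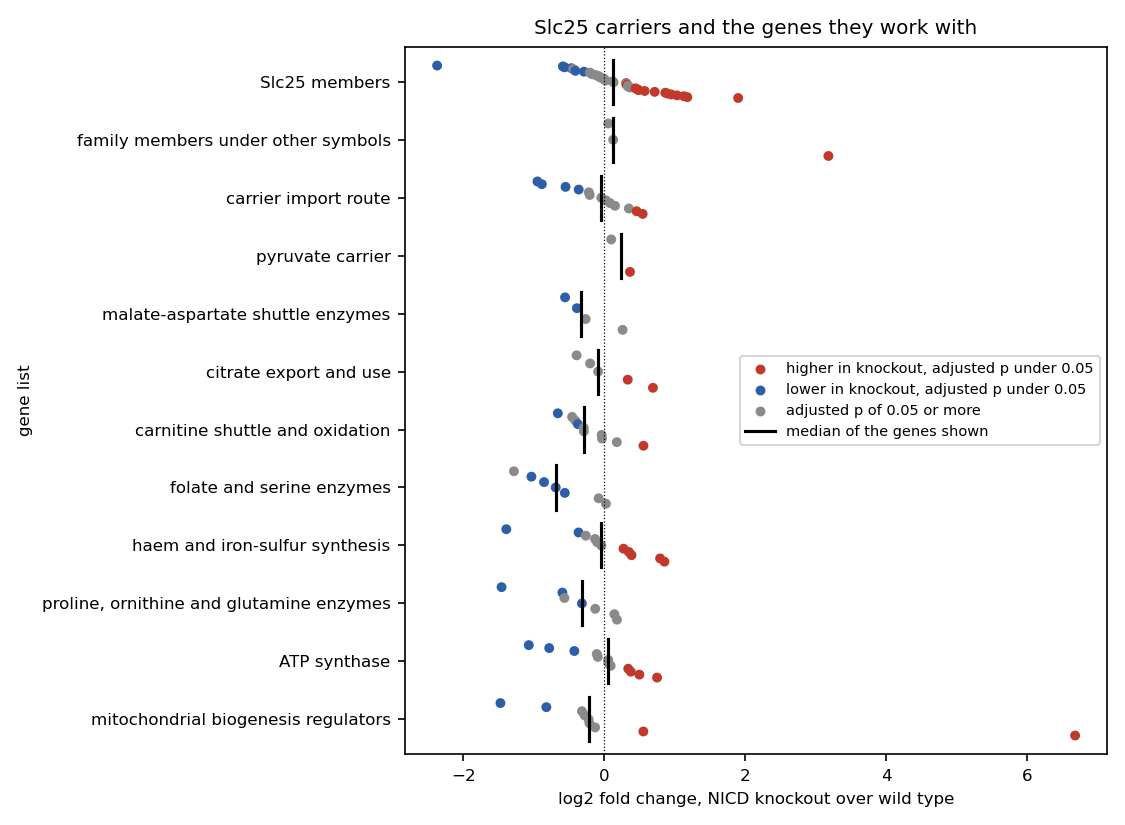
Log2 fold change of the Slc25 carriers and of 11 lists of genes that work with them in the authors' deposited table, 1 point per gene, with the median of the genes shown in each list as a vertical bar. The folate and serine enzymes have the lowest list median at -0.69, and the point farthest to the right is Ppargc1a, whose fitted wild type level lies below 1 normalised count.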

How the data were processed

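Total RNA of 6 mLPS1 libraries was extracted with TRI Reagent, per the labels' protocols, and groups were taken from the genotype label. Salmon, DESeq2 and the build mm39 are named in the submitters' processing notes, with versions, settings and filters not given in the sources used here. For each gene the authors deposited, per the file headers, a mean normalised count (a signal), a log2 fold change and the standard error of it on the log2 scale, a Wald statistic (a score), and a p-value with its adjusted form. The direction, knockout over wild type, comes from the name the authors gave the table. The Wald statistic, p and Benjamini-Hochberg adjustment were recomputed and differed by at most 1.56e-13. Calls are those of the authors' DESeq2 test over 14470 genes. An edgeR test had been planned for counts and was not run, as no value of a single library was used here.

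Fitted levels solve the deposited mean and fold change for equal groups of 3. Where a level lay below a floor of 1 normalised count in each library (3 over the group), the fold was taken against that floor. Such a fold leaves out sampling error. GENCODE M21 (GRCm38) matched 14456 identifiers and served for chromosome, gene order, transcript length and coding sequence. Promoter windows came from RefSeq (GRCm38.p6), and no coordinates of mm39 were mixed with them. Full values are given for called carriers with a log2 fold change of at least 1 either way and for the most abundant carrier of each role, and up to 3 called genes with the smallest p are named per partner list. Slc25a4, Slc25a22, neighbouring genes and markers are named beyond this rule, after their values were seen. Values of 1 carrier and 1 partner gene are not reported here, although they count in the totals, and figures leave them out. Members, lists and motifs were chosen with earlier results of these data known. The threshold, the adjustment, the genes tested, centring and neighbour subtraction were varied. The recomputed tests were checked on simulated data. Python 3.11.15, numpy 2.4.6, pandas 2.3.3, scipy 1.17.1, matplotlib 3.10.9 and Biopython 1.88 were used.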

Additional observations from a re-analysis of the deposited data

How the results depend on the processing

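Of the 21 carriers called (15 higher, 6 lower), 14 were called at an adjusted p under 0.01 (10 higher, 4 lower), and 18 among genes with a mean of at least 100. Bonferroni adjustment called 6 (5 higher, 1 lower) and the test against 1.5-fold called 4 (3 higher, 1 lower). These are stricter by construction. Centring on the median of expressed genes (-0.05) called 21 (17 higher, 4 lower), of which 19 were shared, with Slc25a10 and Slc25a38 gained and Slc25a25 and Slc25a36 lost. Subtracting the neighbours' median called 23 (15 higher, 8 lower), of which 18 were shared, with Slc25a13, Slc25a17, Slc25a26, Slc25a33 and Slc25a38 gained and Slc25a20, Slc25a27 and Slc25a46 lost. The median log2 fold change of 0.13 became 0.31 among carriers with a mean of at least 100 and 0.30 with neighbours subtracted. Signs turned with neighbours subtracted for Slc25a26 (0.62), Slc25a1 (0.17), Slc25a10 (-0.29), Slc25a11 (-0.22), Slc25a13 (0.43), Slc25a15 (0.24), Slc25a46 (-0.048) and Slc25a47 (0.64), and on centring for Slc25a40 (0.0035), Slc25a44 (0.048) and Slc25a35 (0.040). Of these, Slc25a13 and Slc25a26 became calls opposite to their sign in the deposited table. Neighbour-subtracted tests kept each gene's own SE and took the neighbours' median as exact. Their adjusted p thus leaves out the spread among neighbours, and these calls are uncertain. The cause of the turned signs was not tested. Slc25a22 and Slc25a23 were called the same way under every alternative run, and so was Slc25a29 where its low mean let it be tested. Leaving out a library, edgeR, limma-voom and a DESeq2 refit were not run, since no value of a single library was used, so whether 1 library decides a value is unknown.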
